A study of Mus musculus with 10 samples.

Results

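The genes described here encode the axon guidance receptors Robo1 and Robo2 and the secreted ligands Slit2 and Slit3, 4 of the 18256 genes that had a peak in either of the deposited tables. Their peaks were taken by the gene symbol listed with each peak, which gave 33 of 44925 peaks for histone H4 monomethylated at lysine 20 (H4K20me1) and 4 of 51322 peaks for elongating RNA polymerase II (Pol II S2P), the form with phosphate on serine 2 of the C-terminal repeat. For H4K20me1 these were 9 peaks of Robo1, 1 of Robo2, 1 of Slit2 and 22 of Slit3. For Pol II S2P they were 3 peaks of Robo1 and 1 of Slit3, while Robo2 and Slit2 had none.

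Slit proteins are large glycoproteins released into the extracellular matrix, where they bind heparan sulfate and the immunoglobulin domains of Robo receptors. Bound receptors act on the actin cytoskeleton through adaptor proteins and GTPase-activating proteins, and the pathway is best known for repelling axons and steering migrating cells. H4K20me1 is laid down by KMT5A and is the substrate from which KMT5B and KMT5C make the di- and trimethylated forms.

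The profiles were made by CUT&RUN, which releases the DNA around an antibody-bound protein with a tethered nuclease, in mouse satellite cells, the muscle stem cells (MuSCs) that lie along muscle fibres, after culture. Control cells (Ctrl) are labelled Pax7CreERT/Suv4-20h1WT and mutant cells (sKO) Pax7CreERT/Suv4-20h1KO, where Suv4-20h1 is another name of Kmt5b. The study's methods give 2 biological replicates per genotype and antibody, and the library of non-specific IgG that the labels list for each genotype was not analysed here. Both genotypes carried the tamoxifen-inducible Cre under control of Pax7, a gene of satellite cells, on a C57BL/6 background. The study's methods describe the mutant allele as floxed Kmt5b, and tamoxifen as given to mice of 8 to 12 weeks. Recombination is therefore limited to cells that expressed Pax7.

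Every value below is a score, an integer per peak and library that the authors describe as coverage normalised by spike-in, and a gene's score is the sum over its peaks. The total H4K20me1 score was 15218720 and 20432644 in the Ctrl libraries against 32194136 and 35046570 in the sKO libraries, so a higher score in sKO was the rule across the genome. Of 8 satellite and myogenic markers 6 had a Pol II S2P peak, summing to 7117, 7922, 8746 and 5945 in Ctrl 1, Ctrl 2, sKO 1 and sKO 2, the order used for every set of 4 values below, while Myf5 and Cdh15 had none. Among markers of other cells, 2 of 5 endothelial genes summed to 133 to 256, 2 of 4 immune genes to 874 to 1368 and 2 of 4 neural genes to 416 to 620. Most of the immune sum came from Cd68, at 863, 952, 1308 and 840. The 2 of 5 fibroblast markers with a peak summed to 1165 in Ctrl 1 and to 81 to 157 in the other libraries, and Col1a1 among them scored 1093, 16, 75 and 31. The sKO label could not be checked on Kmt5b itself, whose 2 Pol II S2P peaks scored 24, 62, 48 and 22, since the deleted part of the gene is not given in the sources used here.

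The bases before each annotated gene start are shown first, in mm10 coordinates, because the genes differed in whether H4K20me1 covered that start. Each run is the 200 bases upstream of the start on the gene's own strand, read from GRCm38.p6, with CG dinucleotides in capitals. For Slit2, Slit3 and Robo2 all of these bases lay in an H4K20me1 peak, and for Robo1 none did.
Slit2, chr5:47982938-47983137, plus strand: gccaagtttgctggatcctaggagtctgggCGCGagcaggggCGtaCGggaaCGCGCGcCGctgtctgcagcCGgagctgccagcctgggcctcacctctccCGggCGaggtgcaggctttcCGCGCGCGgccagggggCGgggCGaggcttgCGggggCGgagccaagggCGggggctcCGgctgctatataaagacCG
Slit3, chr11:35121024-35121223, plus strand: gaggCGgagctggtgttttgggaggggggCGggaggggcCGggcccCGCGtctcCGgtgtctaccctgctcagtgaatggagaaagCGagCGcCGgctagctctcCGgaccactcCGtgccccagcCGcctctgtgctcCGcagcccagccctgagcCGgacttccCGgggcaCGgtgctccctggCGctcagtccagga
Robo2, chr16:74411826-74412025, minus strand: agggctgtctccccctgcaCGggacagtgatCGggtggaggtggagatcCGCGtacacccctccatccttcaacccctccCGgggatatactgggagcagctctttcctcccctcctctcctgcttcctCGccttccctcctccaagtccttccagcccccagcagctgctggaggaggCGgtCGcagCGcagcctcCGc
Robo1, chr16:72308106-72308305, plus strand: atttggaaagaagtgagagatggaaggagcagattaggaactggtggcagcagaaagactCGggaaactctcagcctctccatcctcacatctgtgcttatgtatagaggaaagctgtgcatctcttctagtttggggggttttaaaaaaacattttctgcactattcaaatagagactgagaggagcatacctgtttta
The Slit2 window held 22 CG, the Slit3 window 17, the Robo2 window 10 and the Robo1 window 1, against a median of 11 over 14193 autosomal protein-coding genes. Fewer CG than in Slit2 were found for 86.0% of those genes, and fewer than in Robo1 for 3.37%. These windows belong to 1 annotated start per gene. The RefSeq start of Robo1 lay 355 kb further into the gene, and Robo2 had further RefSeq starts 681 and 1035 kb upstream. The bases before those starts were not counted. The letters TATAAA, searched on both strands, occurred in the Slit2 window and in 5.90% of all windows. The palindrome CAGCTG, an E-box sequence, occurred in the Robo2 window and in 10.3% of all windows.

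MicroRNA genes lie within these ligands' introns, and their mature strands are shown because miR-218 is known to target Robo receptors and because its gene in Slit3 lay inside the broadest peak described here. Mir218-1 lies in an intron of Slit2 at chr5:48223942-48224051 and Mir218-2 in an intron of Slit3 at chr11:35616816-35616925, each on the strand of its host. A further one, Mir691, lies on the host strand in an intron of Robo2, at chr16:74341990-74342067 and 65.9 kb from the Robo2 peak. The seed, bases 2 to 8, is in capitals, and the sequences are those of RefSeq for GRCm38.p6.
miR-218-5p, from both genes: uUGUGCUUgaucuaaccaugu
miR-218-1-3p: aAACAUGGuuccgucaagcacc
miR-218-2-3p: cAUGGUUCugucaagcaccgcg
The 5p strand is identical between the genes, and the 3p strands have different seeds. The 7 bases AAGCACA that pair with the 5p seed were then searched in the longest annotated 3′ untranslated region of each gene. Robo1 had 1 match, Robo2 had 2 and Slit2 had 2, while Slit3 had none in its 365 bases. Of 20016 autosomal protein-coding genes, 14.0% had at least 1 match and 2.38% at least 2. Among the 9902 genes with such a region of at least 1 kb, as in Robo1, Robo2 and Slit2, 24.3% had a match. The matched sites are printed with the 7 bases in capitals.
Robo1, chr16:73045332-73045355, plus strand: ttttttttggttttaaAAGCACAa
Robo2, first, chr16:73895358-73895381, minus strand: gattttatttggtgatAAGCACAa
Robo2, second, chr16:73893032-73893055, minus strand: tagtcacggcagacccAAGCACAg
Slit2, first, chr5:48304527-48304550, plus strand: acgccaatactagcagAAGCACAt
Slit2, second, chr5:48306830-48306853, plus strand: cagataattattagcaAAGCACAt
In Robo1 and in the first Robo2 site the match is followed by an A, the base opposite position 1 of the microRNA. A match describes letters only, and no target data were used.

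On the deposited scale H4K20me1 over all 4 genes was called higher in sKO than in Ctrl, and at each gene the lower sKO library lay above the higher Ctrl library. Robo1 and Robo2 rose most, 3.30 and 3.24 times in the means, Slit2 rose 2.86 times and Slit3 1.98 times, though the direction for Slit3 turned at equal library medians. Of the 13750 autosomal genes tested 92.3% were called higher and 96.5% showed the same separation of libraries, so 4 of 4 is near the background. With quantile normalisation 10.3% of genes were called higher and 11.1% lower, and 11.6% of peaks in either direction. At equal library medians the shares were 12.4% and 13.1% of genes and 11.0% and 14.9% of peaks. The genes differed in the size of the change on the deposited scale, with both receptors and Slit2 above the median gene and Slit3 below it. With quantile normalisation all 4 lay above the median gene, at 0.73 for Robo1, 0.41 for Robo2, 0.24 for Slit2 and 0.19 for Slit3. No spike-in values were used here and the scale between libraries was not checked, so each change is also given relative to the other genes.

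Robo1 (ENSMUSG00000022883) spans chr16:72308306-73046095 on the plus strand, 738 kb with 32 merged exons, and encodes a single-pass receptor of Slit ligands. Summed over the gene, H4K20me1 scored 779 and 1044 in Ctrl, then 2867 and 3153 in sKO. The lowest sKO library was thus well above the highest Ctrl library. The log2 fold change was 1.74 ± 0.27 (SE, n = 2 libraries per genotype), with an adjusted p of 3.65e-09 by limma on log2(score + 1), where a call needs an adjusted p below 0.1 and a log2 fold change beyond 0.5, against a median of 1.11 over all genes tested. It exceeded the change of 89.5% of all genes and of 95.8% of the 852 tested protein-coding genes longer than 200 kb, whose median was 1.15. When the libraries were scaled to equal totals, which left a median gene at 0.18, the log2 fold change was 0.81 with a limma adjusted p of 2.12e-13, and 24.1% of all genes were still called higher.

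The 9 Robo1 peaks covered 60.4 kb, 8.19% of the gene, and none lay at the annotated start. The first was centred 255 kb into the gene, at chr16:72559600-72567399, and scored 67, 92, 269 and 444. Peaks 2 and 3 were centred at 339.9 and 348 kb and scored 60, 88, 386 and 337 and 87, 89, 248 and 371. Peak 3 ended 4.15 kb before the RefSeq start of a shorter Robo1 transcript at position 72663149, in a stretch where the annotated long form is intronic. The other 6 peaks lay between 659 and 724 kb, towards the 3′ end, and 5 of them overlapped exons, whereas peaks 2 and 3 overlapped none.

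All 9 Robo1 peaks were called higher, against 90.1% of the 40902 autosomal peaks tested, and in each the Ctrl and sKO libraries were separated in that direction, as in 93.9% of all peaks. All 9 changed more than the median peak, whose log2 fold change was 1.14. Their log2 fold changes ran from 1.27 to 2.30 with a median of 1.77. Peak 2 rose most, by 2.30 ± 0.35, and peak 8 least, by 1.27 ± 0.38, with limma adjusted p of 2.64e-09 and 0.00139. With libraries scaled to equal totals 7 of the 9 were called higher, against 25.9% of all peaks. The levels in sKO were even along the gene, 44.9 to 54.9 score per kb of peak, whereas those in Ctrl ran from 10.2 to 19.3 per kb and were lowest in peaks 1 and 2. Across the 9 peaks the change fell with distance from the start (Spearman's rho of -0.90) and with GC content (rho of -0.63), a description of peaks that share the same libraries. Robo1 peaks centred before the middle of the gene held 27.5% and 25.8% of its score in Ctrl and 31.5% and 36.5% in sKO. The groups did not overlap, and the exact two-sided permutation test gave p = 0.333, the smallest that 2 against 2 libraries allow.

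**Figure D1:**
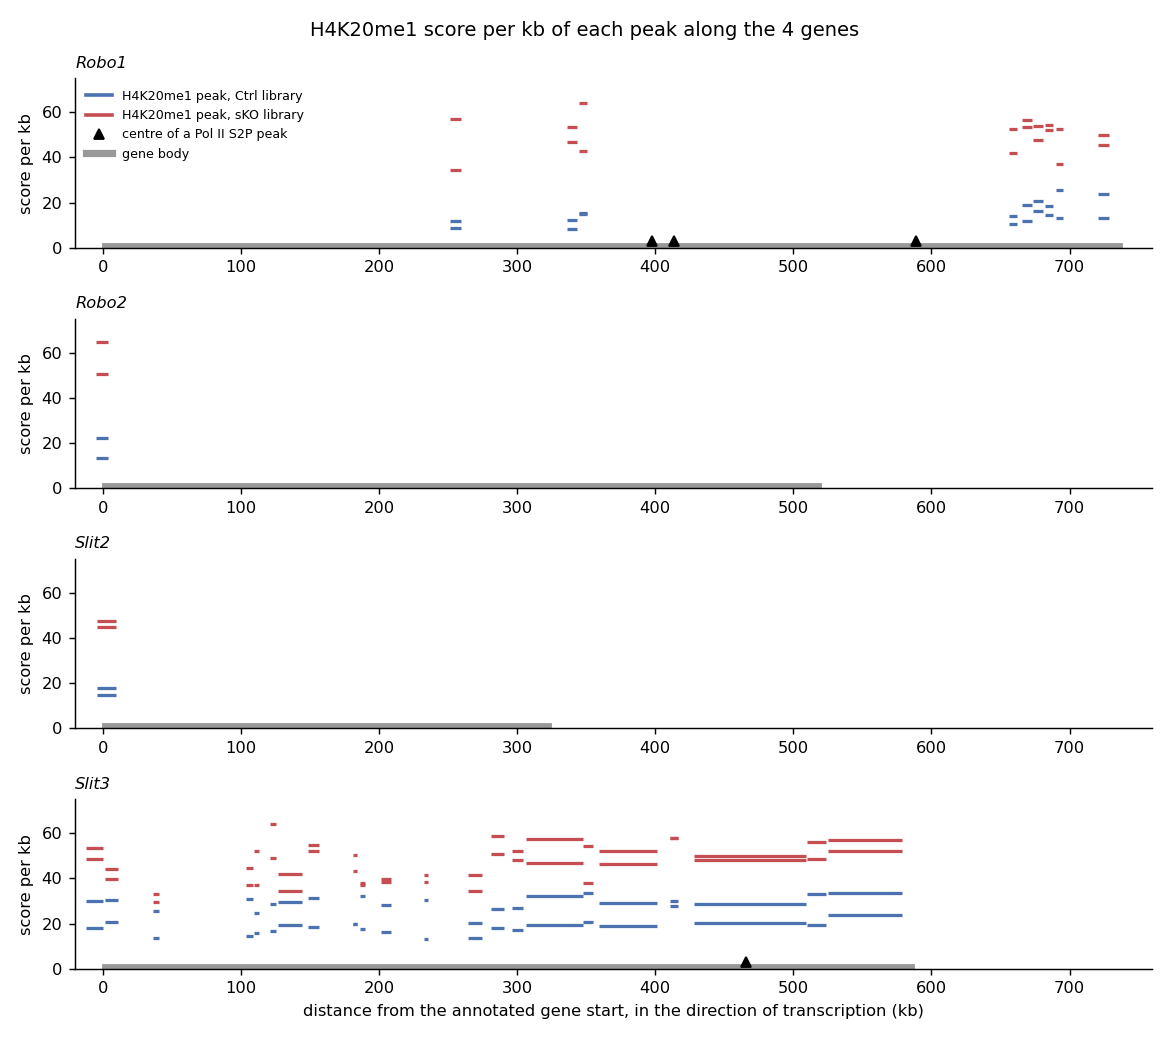
H4K20me1 score per kb of peak (y axis) against distance from the annotated start in kb (x axis) for each peak and each of the 4 libraries, with Ctrl in blue and sKO in red, line length showing peak length and triangles marking Pol II S2P peaks. Robo2 and Slit2 have a single peak at the start, Robo1 has none there, and peaks cover 58.3% of Slit3.

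Robo2 (ENSMUSG00000052516), a close paralogue of Robo1, spans chr16:73891839-74411825 on the minus strand, 520.0 kb with 30 merged exons. Its only H4K20me1 peak, chr16:74408000-74416799, was 8.8 kb long and straddled the start, with a fraction of 0.4 inside the gene. The Ctrl libraries scored 119 and 195 there and the sKO libraries 445 and 571, so that the Ctrl libraries spread widely but stayed below both sKO libraries. The log2 fold change was 1.72 ± 0.30 with a limma adjusted p of 7.47e-08, above 88.9% of all genes and 95.5% of the long genes. At equal totals it was 0.79 with an adjusted p of 0.000349, and with quantile normalisation it was 0.41 (adjusted p of 0.0603) and no longer called. The peak took up 0.736% of the gene, and the remaining gene body held no peak of either mark. Further RefSeq starts of Robo2 at 75092770 and 75447293, upstream of the annotated gene, had no H4K20me1 or Pol II S2P peak within 100 kb.

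Slit2 (ENSMUSG00000031558), a ligand known for repelling commissural axons, spans chr5:47983138-48307733 on the plus strand, 325 kb with 46 merged exons. Its single H4K20me1 peak, chr5:47979200-47992799, covered the start and scored 199 and 241 in Ctrl and 646 and 611 in sKO. Replicates were close, and the genotypes did not overlap. The log2 fold change was 1.52 ± 0.28 with a limma adjusted p of 3.98e-07, above 80.5% of all genes and 87.0% of the long genes. At equal totals it was 0.59 with an adjusted p of 0.00150, and at equal library medians, a scaling added after the data were seen, it was 0.36 and below the size limit, as it was with quantile normalisation (0.24, adjusted p of 0.205). The intron that holds Mir218-1 carried no peak, and the nearest H4K20me1 peak lay 117 kb away, in a region listed with Pacrgl.

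Slit3 (ENSMUSG00000056427) spans chr11:35121224-35708507 on the plus strand, 587 kb with 37 merged exons, and carried the highest score per kb of gene among the 4. Its 22 peaks covered 354 kb, 58.3% of the gene. The sums reached 16614 and 18191 in sKO, against 7011 and 10608 in Ctrl. The genotypes did not overlap, but the Ctrl libraries differed from each other by more than the sKO libraries did. The log2 fold change was 1.01 ± 0.30 with a limma adjusted p of 0.00104, a difference of -0.10 from the median gene and above 40.8% of all genes. As parts per 1000000 of the library total, Slit3 held 461, 519, 516 and 519, which overlap. At equal totals its log2 fold change was 0.08 with an adjusted p of 0.0770, and at equal library medians it turned to -0.15. With quantile normalisation it was 0.19 (limma adjusted p of 3.64e-06), below the size limit but above 68.5% of all genes. The call was also lost without sKO replicate 1 (1.08, limma adjusted p of 0.166) and without sKO replicate 2 (0.95, adjusted p of 0.234).

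The first Slit3 peak, chr11:35109400-35121399, covered the annotated start but reached only 0.175 kb past it, with a listed fraction of 0 inside the gene. It ended 0.057 kb before the RefSeq start at 35121456. This peak scored 217, 360, 585 and 642, a log2 fold change of 1.13 ± 0.28. Short peaks, of 2.8 to 17.4 kb, followed over the first 300.3 kb. Beyond them the second part of the gene was mostly covered, and 4 peaks longer than 20 kb covered 218 kb and held 63.8% of the score. The longest, peak 20 at chr11:35549000-35630399, measured 81.4 kb, overlapped 11 exons and contained Mir218-2. It scored 1656, 2337, 3916 and 4075, and its log2 fold change of 1.02 ± 0.28 became -0.21 at equal library medians. Peak 22, of 53.8 kb, overlapped 13 exons and scored 1292, 1810, 2811 and 3064.

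Along Slit3 the change was even. On the deposited scale 21 of 22 peaks were called higher, beside 90.1% of all peaks, with changes from 0.65 to 1.35 on the log2 scale with a median of 1.03, and 6 of 22 exceeded the median peak. Peak 6 was highest, at 1.35 ± 0.36, and peak 10 lowest, at 0.65 ± 0.42 with a limma adjusted p of 0.136. The ratio of sKO to Ctrl means was 1.99 for the 4 long peaks and 1.96 for the 18 shorter ones. Neither position (rho of 0.07) nor GC content (rho of -0.05) ordered the 22 changes. Slit3 peaks before the middle of the gene held 24.9% and 26.6% of the score in Ctrl and 26.0% and 25.1% in sKO (exact permutation test, p = 1). At equal totals none of the 22 was called, where 25.9% of all peaks were called higher, and 6 had a negative fold change, and at equal library medians 20 were negative and 1 was called lower, as were 14.9% of all peaks.

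**Figure D2:**
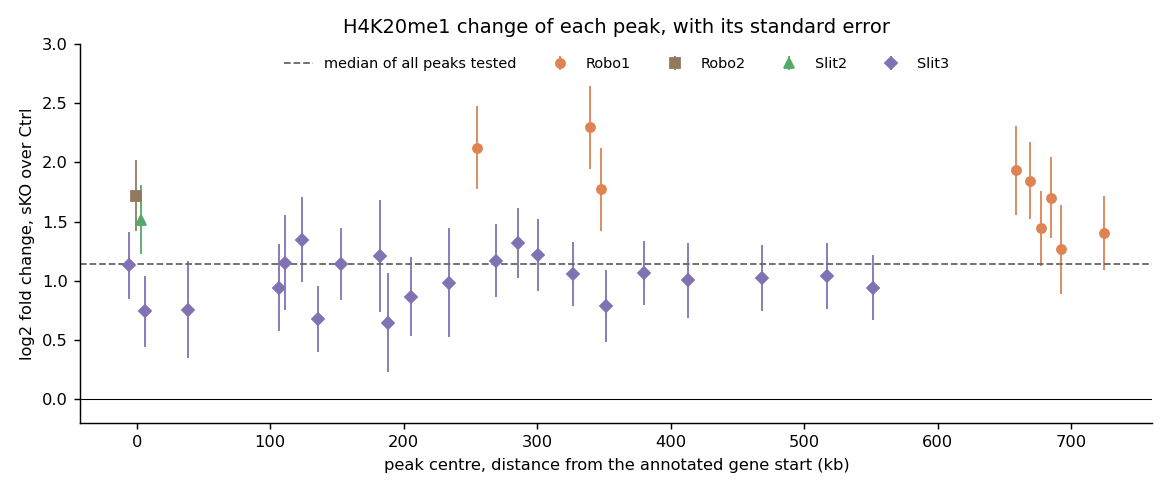
H4K20me1 log2 fold change of each peak, sKO over Ctrl (y axis), with its standard error as bar, against the distance of the peak centre from the annotated start in kb (x axis). All 9 Robo1 peaks lie above the dashed median of all peaks tested, and the Slit3 peaks scatter around 1.03 along the whole gene.

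Levels were compared between genes only per length. Per kb of gene the Ctrl means were 15.0 for Slit3, 1.24 for Robo1, 0.678 for Slit2 and 0.302 for Robo2, and no library of one gene reached the range of the next in this order. Long genes had a median of 6.30 per kb in Ctrl, so only Slit3 stood above it, ahead of 78.4% of them. Over all 13750 genes the median was 20.9 per kb, and Slit3 lay below it, ahead of 38.5% of genes, while Robo1, Slit2 and Robo2 were ahead of 3.08%, 1.40% and 0.487%. Per kb of peak the genes were far closer. The Ctrl means were 24.9 for Slit3, 17.8 for Robo2, 16.2 for Slit2 and 15.1 for Robo1, and only Slit3 against Slit2 and Robo1 did not overlap between libraries. The median autosomal peak had 22.4 per kb in Ctrl, above the means of Robo2, Slit2 and Robo1 and below that of Slit3. In sKO the means per kb of peak were 57.7, 49.8, 49.1 and 46.2 for Robo2, Robo1, Slit3 and Slit2, each overlapping the next, close to the 49.0 per kb of the median autosomal peak.

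Ratios between genes within a library do not depend on the scale between libraries, and 6 were compared. The log2 ratio of Robo1 to Slit3 was -3.17, -3.34, -2.53 and -2.53, which gave a difference of 0.73 between the genotype means. That of Robo2 to Slit3 differed by 0.72 and that of Slit2 to Slit3 by 0.51. No Ctrl library overlapped an sKO library in these 3 ratios, nor in the ratio of Robo1 to Slit2. In that last ratio the gap was narrow, with the higher Ctrl library at 2.115 and the lower sKO library at 2.150. The exact two-sided permutation p was 0.333 for each separated ratio, the lowest possible here, and 0.5 after adjustment over the 6 ratios. The ratios share genes, and the share of all gene pairs with such a separation was not computed, so the separation is a description. Robo1 to Slit2 differed by 0.22, Robo2 to Slit2 by 0.21 and Robo1 to Robo2 by 0.01 (adjusted exact p of 0.5, 0.8 and 1).

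**Figure D3:**
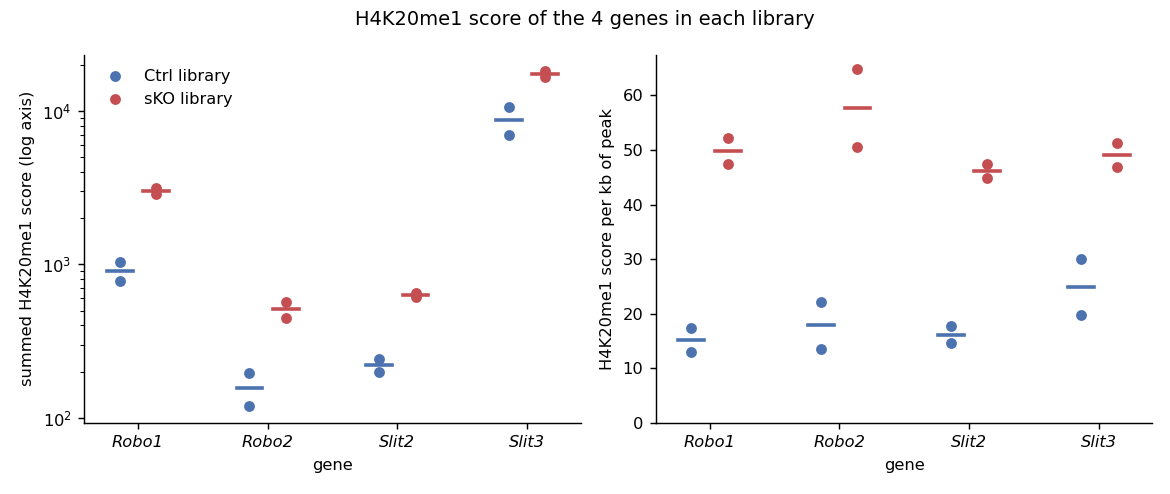
Left, summed H4K20me1 score of each gene on a log axis, and right, H4K20me1 score per kb of peak, with 1 point per library and bars for the mean of 2. On the right the sKO means sit between 46.2 and 57.7 for all 4 genes and the Ctrl means between 15.1 and 24.9.

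**Figure D4:**
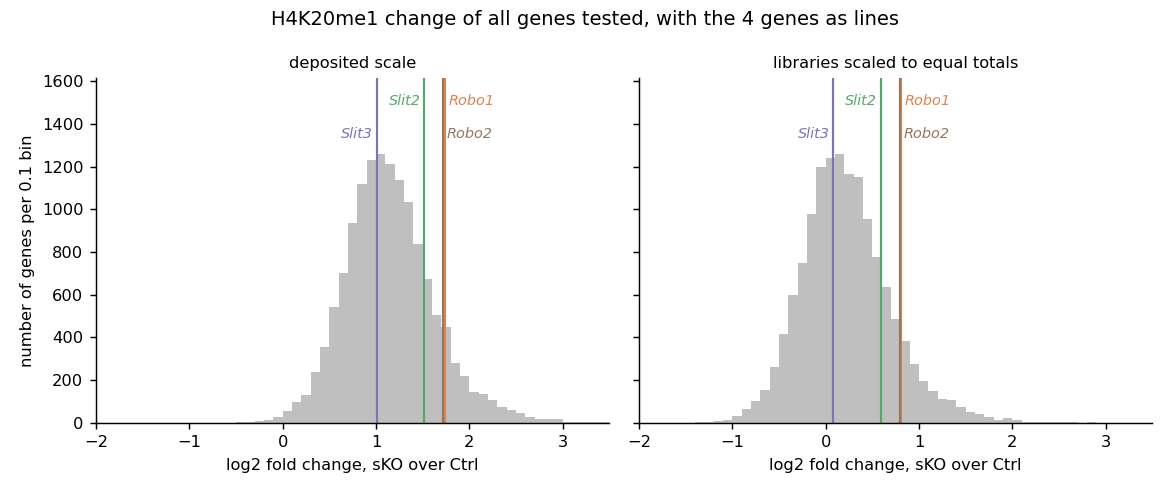
Number of genes per bin (y axis) by H4K20me1 log2 fold change, sKO over Ctrl (x axis), for the 13750 genes tested, on the deposited scale and at equal totals. Robo1, Robo2 and Slit2 lie to the right of the medians of 1.11 and 0.18, and Slit3, at 1.01 and 0.08, lies just left of them.

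The peaks also differed in base composition, which the choice of genes did not use. Median GC content was 39.9% in Robo1, 41.2% in Robo2, 43.2% in Slit2 and 46.7% in Slit3, against 44.3% over all autosomal peaks. Across the 33 peaks GC content and log2 fold change had a Spearman's rho of -0.69. The points share libraries and come from 4 genes that differ in both, so this is a description, and the part of base composition in the differences between genes was not tested.

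Elongating polymerase was sparse on the 4 genes. The Robo1 peaks at 398, 414 and 589 kb, each under 0.5 kb long and outside the H4K20me1 peaks and the exons, scored 20, 34, 37 and 20, then 50, 50, 43 and 38, then 51, 31, 58 and 63. The genotypes overlapped in the first, both sKO libraries lay below both Ctrl libraries in the second, and both lay above them in the third. Of the 22353 peaks tested 6.84% had the pattern of the second and 16.7% that of the third. The second had a mean below 50 and was not among those tested, so its share comes from peaks with higher scores. Summed over the gene the scores were 121, 115, 138 and 121, which overlap. The log2 fold change was 0.13 ± 0.41 with a limma adjusted p of 1 (-0.01 at equal totals), against a median of 0.09 over 8531 genes, of which 0.0% were called in either direction and 100 had an unadjusted p below 0.05. The third peak alone was over the mean score of 50 needed for the test. Its Ctrl mean was 41 and its sKO mean 60.5, so it passed only through sKO and its change is a description. The third peak changed by 0.59 (limma adjusted p of 1), where 0.0447% of all peaks were called higher and 0.00447% lower. Per kb of gene Robo1 scored 0.160 in Ctrl, more than 8.54% of the 515 long genes tested for Pol II S2P.

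The Slit3 peak of Pol II S2P, chr11:35587130-35587481, lay 466 kb into the gene, inside H4K20me1 peak 20 and 29.3 kb upstream of Mir218-2. It scored 26, 34, 30 and 50, with overlapping groups and a mean too low for the test. No Pol II S2P peak was listed with Robo2 or Slit2, and the nearest one to the Slit2 start was 1800.4 kb away. The union set lists a region only where a peak was called, so a missing peak means that no value was analysed, not a score of 0.

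Around the genes, within 200 kb, H4K20me1 peaks listed elsewhere were few. Robo2 had none, Robo1 had 3, Slit2 had 2 and Slit3 had 8. Downstream of Robo1, a peak listed with the non-coding gene 4930500H12Rik scored 119, 133, 426 and 507, a ratio of means of 3.70, beside 3.30 for Robo1. The other two had lower ratios, 2.05 for a second peak of 4930500H12Rik and 1.35 for one before the Robo1 start, where the genotypes overlapped at 43, 116, 110 and 105. Downstream of Slit2, the Pacrgl peaks had ratios of 2.95 and 2.83, beside 2.86 for Slit2. Downstream of Slit3 the neighbours differed. A peak of 66200 bases at Rars1, an arginyl-tRNA synthetase, scored 2408, 3361, 3665 and 3984, a ratio of 1.33, while 5 peaks of Wwc1, which encodes the Hippo regulator KIBRA, had ratios of 2.64 to 3.48. Slit3 neighbours listed with no gene had ratios of 1.72 before the start and 2.44 after the end.

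By Euclidean distance over the 4 libraries on log2(score + 1), the genes with the most similar H4K20me1 values were Ubash3b and Creb5 for Robo1 (0.11 and 0.13), Trmo and Gm12052 for Robo2 (0.09 and 0.13), AC154492.1 and Xdh for Slit2 (0.10 and 0.11) and Magi1 and Kiaa0556 for Slit3 (0.14 and 0.16). Ubash3b, for example, scored 825, 1004, 2821 and 3063.

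The rest of the pathway was followed in a list of 41 genes. For H4K20me1 39 were tested, 32 were called higher and none lower, against 92.3% higher among all genes, and their median log2 fold change was 0.90, with 11 above the median gene. Among the 39, Cxcr4 and Sdc1 were the genes whose change exceeded those of Robo1 and Robo2. Robo3, a receptor of commissural axons, rose by 0.93, Robo4, the endothelial receptor, by 0.97 and the ligand Slit1 by 0.83, each called and each below the median gene. Slit1 scored 2437, 3554, 5116 and 5360.

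Downstream, all 5 GTPase-activating proteins were called higher on the deposited scale, where 92.3% of all genes were, so 5 of 5 is near the background. Their median was 0.90 and none exceeded the median gene. Srgap1, which binds the Robo1 tail, scored 2516, 3532, 5298 and 6035. Beside the same share of all genes, 4 of 5 adaptors and exchange factors were called, and Nck1, at 0.45, was not. The GTPases stood lowest. Rhoa scored 1663, 2094, 1973 and 1964, Rac1 1730, 2157, 2007 and 2108, and Cdc42 3059, 3785, 3598 and 3845. Their log2 fold changes of 0.08, 0.09 and 0.13 were not called (limma adjusted p of 0.783, 0.747 and 0.656), and at equal totals all 3 were called lower, where 4.31% of genes were. Rac1, Rhoa and Cdc42 libraries overlapped between the genotypes on the deposited scale.

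At the other end stood Cxcr4, the chemokine receptor whose signalling Slit can dampen. It scored 53, 65, 304 and 293, a log2 fold change of 2.33 ± 0.38 with a limma adjusted p of 1.49e-08. The heparan sulfate proteoglycan Sdc1 scored 232, 332, 974 and 1026 and rose by 1.84 ± 0.27, and the netrin receptor Unc5b rose by 1.56 ± 0.28. At equal totals these 3 were the only ones of the 39 tested genes called higher, where 24.1% of all genes were. Unc5b was not called at equal library medians (0.40). The counts by role on the deposited scale stand beside 92.3% of all genes called higher there. All 6 genes of guidance and chemotaxis partners were called, near that background, and exceeded the median gene. Of the 8 genes of heparan sulfate and matrix binding 7 were called and 3 exceeded it, Gpc1 (0.26) being the one not called. The kinases had 3 of 4 tested genes called, the actin regulators 2 of 3, and the deubiquitinase Usp33 was called at 0.97.

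**Figure D5:**
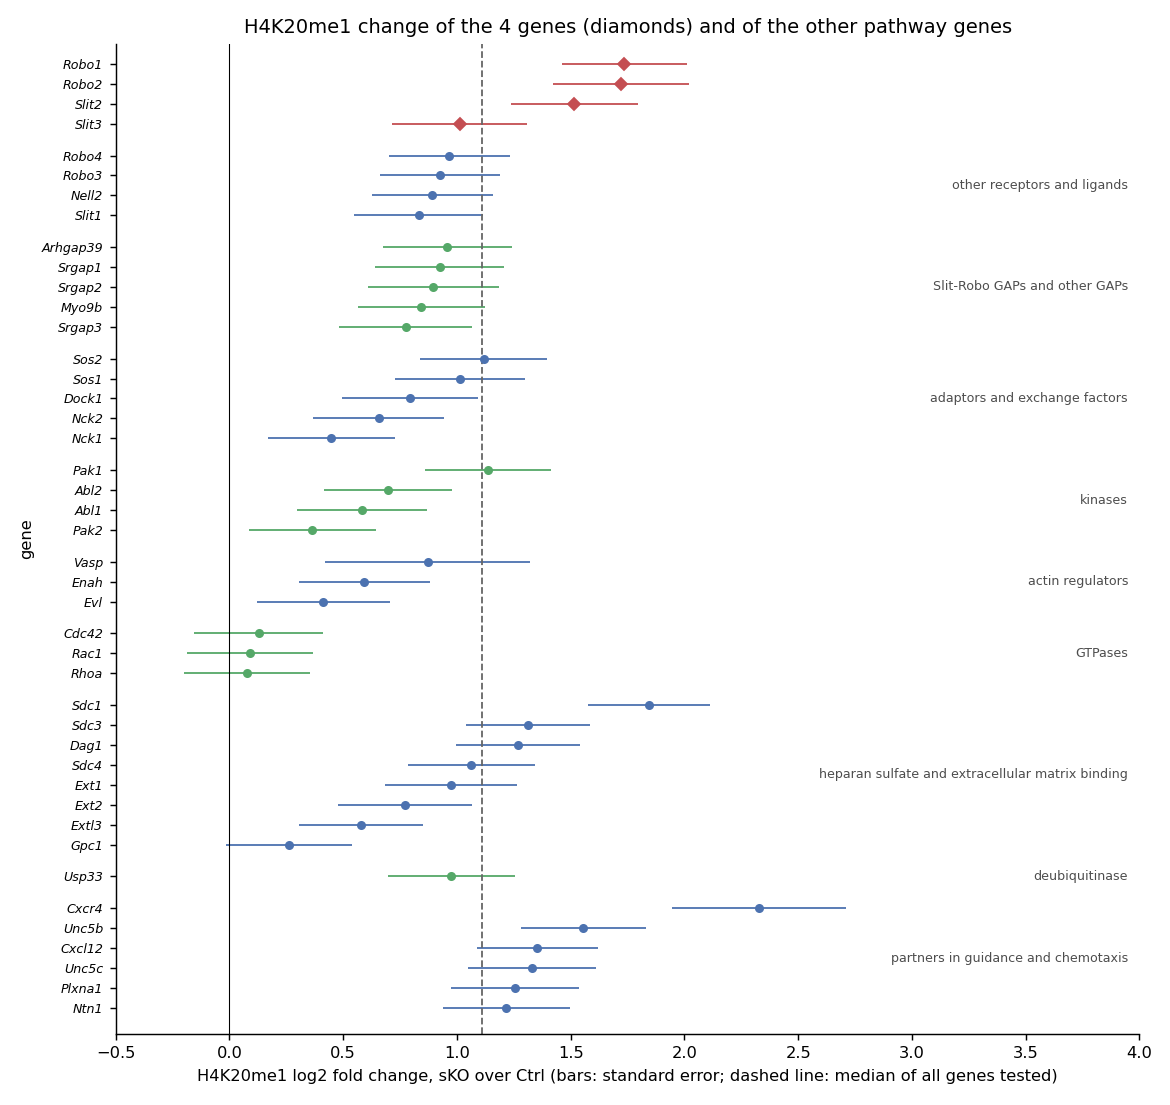
H4K20me1 log2 fold change, sKO over Ctrl (x axis), with standard errors, for the 4 genes (diamonds) and the 39 tested pathway genes by role (y axis, circles). Rhoa, Rac1 and Cdc42 lie at 0.08 to 0.13, Cxcr4 at 2.33, and the dashed line marks the median of all genes, 1.11.

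For Pol II S2P 29 of the 41 genes were tested and none was called by limma, as for all genes. The highest changes were those of Rac1 (1.21), Nck2 (0.70) and Srgap1 (0.61). The lowest were those of Enah (-0.53), Nck1 (-0.27) and Rhoa (-0.13), and all of these had an adjusted p of 1. Nck2 scored 36, 44, 111 and 38, so its rise came from sKO 1 alone. Enah scored 76, 100, 106 and 34, so its fall came from sKO 2 alone. The Ctrl means of Nck2 and Rac1 lay below the mean score needed for the test. Both passed only through sKO, so their place at the top is a description. Rac1 scored 25, 73, 87 and 116, with no overlap between genotypes, a pattern that 9.41% of the genes tested had. It was called higher only at equal library medians (limma adjusted p of 0.0666), where 1.81% of genes were.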

How the data were processed

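CUT&RUN libraries of H4K20me1 and Pol II S2P from Ctrl and sKO MuSCs (n = 2 each) were analysed. According to the methods, the authors trimmed reads (Trimmomatic 0.39), aligned them to mm10 (STAR 2.7.3a, unique alignments), removed duplicates (Picard 2.21.7) and normalised coverage by spike-in from S2 cells, which are Drosophila cells. Each deposited value is a score: an integer for 1 union peak in 1 library, neither scaled by peak length nor used as a read count. The sources do not assign the peak caller. The deposited fraction gives the share of each peak inside its listed gene.

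Scores were summed by gene identifier. Autosomal features with a mean score over 50 were tested on log2(score + 1) with limma 3.58.1 (R 4.3.3, trended variance), adjusted by Benjamini-Hochberg over all of them, and called at an adjusted p below 0.1 and a log2 fold change beyond 0.5. Limma replaced the authors' count test because the values are not counts. Single values were compared by exact two-sided permutation tests. Alternatives scaled libraries to equal totals, quantiles or medians, changed the pseudocount, filter, trend and peak assignment, left out each library and blocked on replicate number. Sequencing depth cannot be read from such scores, and no counting intervals were made.

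Named were the 4 genes with all their peaks, peaks within 200 kb, microRNA genes inside them, the 3 highest and 3 lowest pathway genes per antibody and the 2 nearest genes by pattern. Other pathway genes with values were named after their values were seen, as examples of their role. The members and lists were chosen with earlier results of these data known. Sequences come from GRCm38.p6 and RefSeq, and gene models from GENCODE M21.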

Additional observations from a re-analysis of the deposited data

How the results depend on the processing

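The scale between libraries changed most. Of the 4 genes, all called higher for H4K20me1 on the deposited scale, 1 (Robo1) was called with quantile normalisation, where 10.3% of all genes were. At equal library medians, a scaling added after the data were seen, 2 (Robo1, Robo2) were called, where 12.4% of all genes were, and Slit3 turned to -0.15. Robo2 has 1 peak, which at those medians was called in the gene fit (0.56) and not in the peak fit (0.49). Of the 33 peaks, 32 were called higher on the deposited scale, 9 at equal totals, 4 with quantile normalisation and 5 at equal library medians, beside 90.1%, 25.9%, 11.6% and 11.0% of all peaks, and 1 was called lower under each of the last 2. Below 0 were 6 of 22 Slit3 peaks at equal totals, 15 of 22 with 1 of 9 Robo1 peaks under quantile normalisation, and 20 of 22 at equal library medians. Among the peaks described singly these included Robo1 peak 8 (-0.010) and Slit3 peaks 1 (-0.040) and 10 (-0.70) under quantile normalisation, and Slit3 peaks 1 (-0.10), 10 (-0.58) and 20 (-0.21) at equal library medians. Among the pathway genes, 32 called higher became 3 higher and 6 lower at equal totals (24.1% and 4.31% of all genes) and with quantile normalisation (10.3% and 11.1%), and 2 higher and 11 lower at equal library medians (12.4% and 13.1%), where 1 was called higher for Pol II S2P. The cause was not tested. Leaving out 1 library at a time gave 3 to 4 genes, 16 to 33 peaks and 6 to 35 pathway genes called higher. The lowest of these counts came without sKO replicate 2 (16 peaks, 6 pathway genes) or sKO replicate 1 (18 peaks, 11 pathway genes), where 38.2% and 53.8% of all genes and 43.8% and 57.3% of all peaks were called higher. With peaks at least 50% inside the gene, Robo2 had no peak left.

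Same-numbered libraries did not deviate together gene by gene (correlation of 0.04 for H4K20me1 genes and -0.04 for Pol II S2P genes). Such a correlation cannot see a shift shared by all genes of a library, so it does not decide whether the replicate numbers mark pairs. With the replicate block 4 genes, 32 peaks and 32 pathway genes were called higher, as without it, and no call of the 4 genes changed. With 2 libraries per genotype the exact permutation tests cannot go below p = 0.333.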
